A study of Mus musculus with 4 samples.

Results

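The Wnt pathway genes described here are 50 of the 21887 protein-coding genes that RefSeq places on chromosomes 1 to 19, X and Y of the mouse genome. They were picked out by their symbols, with no peak value in the rule. They comprise 19 Wnt ligand genes, 10 Frizzled receptor genes (Fzd), the 2 co-receptor genes Lrp5 and Lrp6, 4 secreted Frizzled-related protein genes (Sfrp), 4 Dickkopf genes (Dkk), 4 R-spondin genes (Rspo), the 3 R-spondin receptor genes Lgr4, Lgr5 and Lgr6, and 4 genes of inhibitors inside the cell or at its surface (Axin1, Axin2, Rnf43 and Znrf3). Each was searched for binding sites, called peaks, of the transcription factors Slug and Snail inside the gene or within 10 kb of either end.

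The study used chromatin immunoprecipitation and sequencing (ChIP-seq), in which DNA fixed to a protein is pulled down with an antibody and sequenced, to ask how the factors differ in switching on the epithelial-mesenchymal transition. It holds 4 samples, a ChIP and an input for each of 2 mouse mammary tumour cell lines of the MMTV-PyMT model, where a mouse mammary tumour virus promoter drives the polyoma middle T oncogene. Slug was mapped in pBl.1G, an epithelial line labelled as high in Slug, with a rabbit monoclonal antibody to Slug. Snail was mapped in pBl.3G, a mesenchymal line labelled as high in Snail, with an antibody labelled as directed at both Snail and Slug. Each factor has 1 library from 1 line, so factor, antibody and line cannot be told apart and no difference between the libraries can be tested. Expression was not analysed here, so neither the labelled cell states nor the activity of any Wnt gene was checked.

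Wnt proteins are secreted lipid-modified signals that bind a Frizzled receptor together with Lrp5 or Lrp6. In the canonical branch the bound receptors stop the Axin-containing complex from destroying beta-catenin, which then enters the nucleus and acts with Tcf and Lef factors. Sfrp proteins bind Wnts outside the cell, and Dkk1, Dkk2 and Dkk4 bind the Lrp co-receptors. R-spondins, held by Lgr receptors, keep Rnf43 and Znrf3 from removing Frizzleds from the surface. The pathway is known for its part in mammary duct growth and mammary stem cells, and Wnt1 was found as a gene activated by mouse mammary tumour virus. Slug and Snail are zinc finger repressors that recognise the E-box CAGGTG.

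The deposited Slug list held 41612 peaks with a median width of 206 bp, and the Snail list 28375 peaks with a median width of 722 bp. Each peak has a score from the authors' peak caller, 50 or more in both lists, which ranks peaks within a list only. A rank is given below as the percent of a list that scores at least as high. Depth is unknown and there are no replicates. Positions are on mm10, counted from 1.

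About as many of the 50 genes had a Snail peak as protein-coding genes in general, and more had a Slug peak. Slug peaks were found at 35 genes (70.0%, 95% Wilson interval 56.2 to 80.9), against 56.4% of all protein-coding genes. Snail peaks were found at 33 genes (66%, 52.2 to 77.6), against 66.9%. Both factors had peaks at 27 genes (54.0%, 40.4 to 67.0, against 44.9% of all genes). The interval of the Slug share reached the share of all genes, and the intervals cover counting error over genes only.

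Gene size bears on these counts, because a longer gene offers a wider window. The 50 genes had a median span of 28.8 kb against 17.2 kb for all protein-coding genes. Of members shorter than 10 kb, Slug had peaks at 8 of 16 and Snail at 10, or 62.5%, against 36% and 49.8% of all genes of that size. Between 30 and 100 kb, Slug had peaks at 14 of 18 members (77.8%, against 72.8%) and Snail at 12 (66.7%, against 79.6%). All 7 members longer than 100 kb had a Slug peak, as did 94.4% of all genes of that size. The Slug share of the members thus stood above that of like-sized genes by less in the long genes than in the short ones, and the Snail share was above it under 10 kb and below it in each of the longer classes.

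The genes with peaks of 1 factor were few and of different kinds. Slug peaks alone were found at 8 genes (16.0%, against 11.5% of all genes). These were the ligand genes Wnt2, Wnt3a and Wnt7a, the antagonist genes Sfrp2, Dkk2 and Dkk4, Rspo2, and Lgr5, a marker of epithelial stem cells. Snail peaks alone were found at 6 genes (12%, against 22.1%). These were the receptor genes Fzd2, Fzd7 and Fzd8, the ligand gene Wnt9b, the antagonist gene Sfrp4 and the scaffold gene Axin1. The 9 genes with neither (18%, against 21.6%) were Wnt3, Wnt8a, Wnt8b, Wnt16, Fzd10, Sfrp5, Dkk1, Rspo1 and Rspo3.

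**Figure D1:**
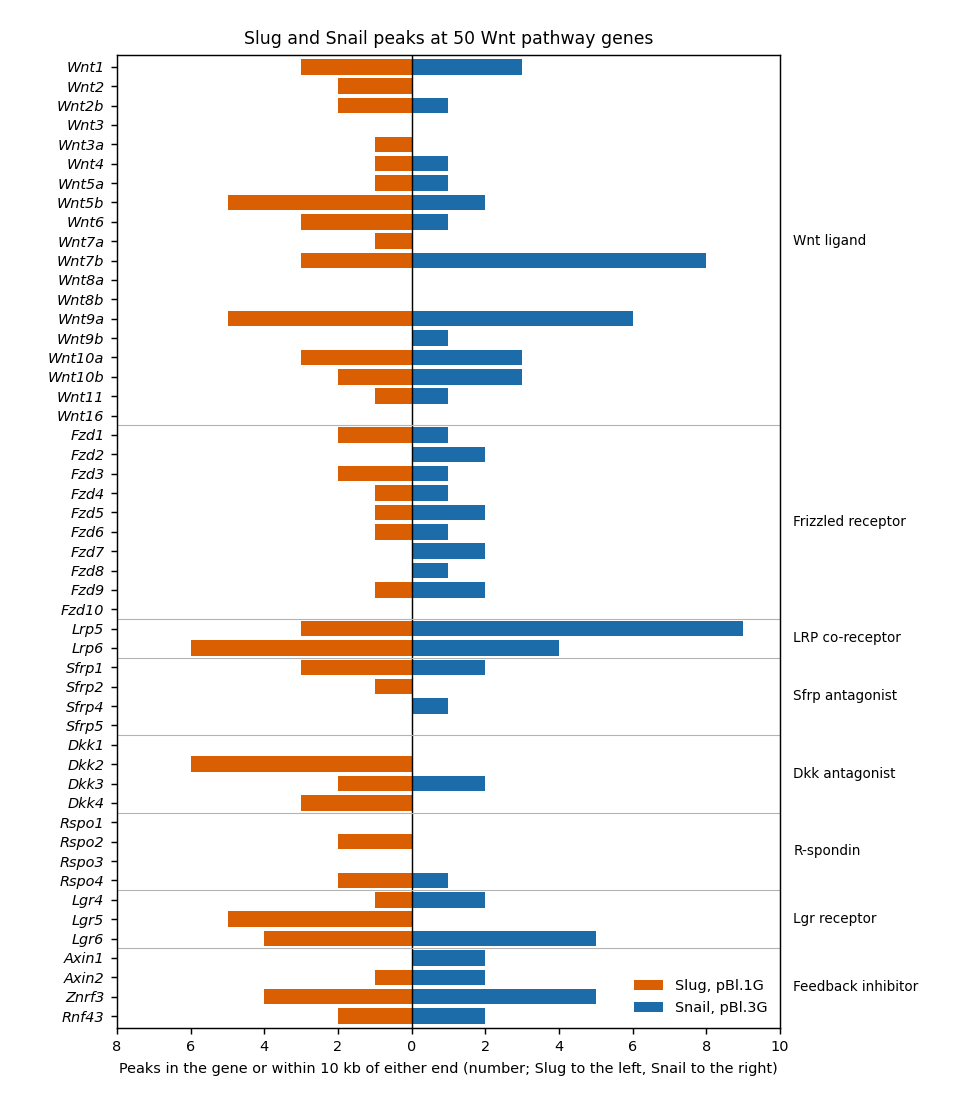
Number of Slug peaks (left, orange) and Snail peaks (right, blue) in each of the 50 genes or within 10 kb of either end, grouped by role. The label Feedback inhibitor stands for Axin1, Axin2, Rnf43 and Znrf3 together. Lrp5 had the most Snail peaks, 9, while Lrp6 and Dkk2 had the most Slug peaks, 6 each.

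Snail peaks at a start site or gene end were common in some kinds of Wnt pathway gene and rare in others. A gene was counted when a peak reached within 1 kb of a start site listed in the set of RefSeq promoter sequences used here. That set lacked 19 of the 50 genes, and for these a peak within 1 kb of either gene end was counted. Snail peaks met this rule at 23 of the 50 genes (46.0%, 33.0 to 59.6, against 52.1% of all protein-coding genes) and Slug peaks at 10 (20%, 11.2 to 33.0, against 11.7%). The 2 parts of the Snail count went opposite ways. It was 12 of the 31 genes with a listed start site (38.7%, against 52.8% of all such genes). For the 19 genes without a listed start site it was 11 (57.9%, against 49.3%). Among the 19 genes of receptors, co-receptors and inhibitors inside the cell or at its surface, 16 had a Snail peak there (84.2%, 62.4 to 94.5). Among the 31 genes of secreted proteins, 7 did (22.6%, 11.4 to 39.8). The intervals cover counting error over genes of 1 library only, and the shares were not tested against each other. For Slug the counts were 4 of 19 (21.1%) and 6 of 31 (19.4%). This split of the members was chosen after their values were seen. Among peaks with a score of at least 100, Snail was within 1 kb at 14 of the 19 and 3 of the 31 (49.4% of all genes), and Slug at 2 of the 50, Wnt2 and Wnt9a (4.5% of all genes).

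The Frizzled genes, which encode the receptors that bind Wnt, had Snail within 1 kb of a listed start site at 5 of 6. The other 4, Fzd2, Fzd3, Fzd6 and Fzd8, have no listed start site and had Snail at a gene end. The count was thus 9 of 10, against 52.1% of all genes, and all 9 had a peak with a score of at least 100 there. Most Frizzled genes are short, with a median span of 4.59 kb, and among all genes under 10 kb only 36.6% had a Snail peak within 1 kb. The 6 listed Frizzled promoters were, however, rich in CpG, with ratios (defined below) of 0.727 to 1.18. Of all promoters with a ratio of 0.6 to 0.8, 78.1% had Snail within 1 kb, and of those with 0.8 or more, 88.6%. The 5 of 6 was thus near the share of promoters of like CpG content. The Fzd5 peak at chr1:64736885-64737819 scored 944 and ranked in the top 12.3% of the Snail list. A second Snail peak, with a score of 104, lay just upstream of it. The Fzd1 peak at chr5:4757369-4758784 scored 941, with its midpoint 0.14 kb inside the gene from the start site. The Snail scores at the ends of Fzd4, Fzd8 and Fzd7 were 858, 816 and 733. Fzd6 (score 607), Fzd2 (388), Fzd3 (239) and Fzd9 (117) had lower-scoring peaks at an end. Fzd10 had none, and its nearest Snail peak was 186 kb away. The Fzd4 peak also lay within 1 kb of an end of Tmem135, the adjoining gene, so it cannot be given to 1 of the genes.

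The share of Frizzled genes with Slug in the window was near that of all genes and above that of genes under 10 kb. It was 6 of 10, against 56.4% of all genes and 36% of those under 10 kb, and Fzd2, Fzd7, Fzd8 and Fzd10 had none. At Fzd6 the Slug peak at chr15:39005919-39006246, with a score of 87.2, lay wholly within the Snail peak over the low-coordinate end. At Fzd3 a Slug peak with a score of 63.9 lay wholly within the Snail peak at the high-coordinate end. At Fzd4 a Slug peak with a score of 60.6 followed the Snail peak after a gap of 219 bp. The highest-scoring Slug peak of the family, 376 and in the top 5.07% of its list, lay at Fzd9 but 9.19 kb upstream of the start site. The Slug peaks of Fzd1 were also distal, 5.1 and 9.79 kb upstream. Thus 3 of 10 Frizzled genes had Slug within 1 kb of a start or end, against 11.7% of all genes, and each of these Slug scores was near or below the list median of 81.1.

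The start-site sequences of 5 genes are shown because Snail peaks covered promoters with and without the E-box, and other promoters with the E-box had no peak over them. Each runs from 250 bases before to 50 bases after the start site, 5′ to 3′ in the direction of the gene, from the RefSeq table of GRCm38.p6. Capitals mark CAGGTG or its complement CACCTG. A Snail peak overlapped the Fzd5, Fzd7 and Wnt1 sequences, and no peak of either factor overlapped those of Wnt4 and Wnt9b.
Fzd5, chr1:64737701-64738000 (minus strand): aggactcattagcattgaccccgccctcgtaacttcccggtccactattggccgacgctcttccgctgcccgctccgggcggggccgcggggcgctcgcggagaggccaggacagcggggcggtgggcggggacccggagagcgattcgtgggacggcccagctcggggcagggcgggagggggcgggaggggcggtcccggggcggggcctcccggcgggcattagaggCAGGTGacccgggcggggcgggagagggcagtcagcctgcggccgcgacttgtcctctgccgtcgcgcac
Fzd7, chr1:59481897-59482196 (plus strand): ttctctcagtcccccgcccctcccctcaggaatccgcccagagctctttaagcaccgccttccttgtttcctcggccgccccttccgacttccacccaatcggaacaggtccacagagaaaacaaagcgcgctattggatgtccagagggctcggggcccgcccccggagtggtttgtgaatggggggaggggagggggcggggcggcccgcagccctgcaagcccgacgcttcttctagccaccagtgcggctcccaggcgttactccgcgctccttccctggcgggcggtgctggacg
Wnt1, chr15:98789607-98789906 (plus strand): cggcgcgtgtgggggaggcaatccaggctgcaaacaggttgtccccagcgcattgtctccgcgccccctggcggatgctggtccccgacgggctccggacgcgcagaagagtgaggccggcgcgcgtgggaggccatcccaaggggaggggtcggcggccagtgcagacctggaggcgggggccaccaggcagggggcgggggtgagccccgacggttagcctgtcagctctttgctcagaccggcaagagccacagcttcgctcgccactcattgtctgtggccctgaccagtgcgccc
Wnt4, chr4:137277385-137277684 (plus strand): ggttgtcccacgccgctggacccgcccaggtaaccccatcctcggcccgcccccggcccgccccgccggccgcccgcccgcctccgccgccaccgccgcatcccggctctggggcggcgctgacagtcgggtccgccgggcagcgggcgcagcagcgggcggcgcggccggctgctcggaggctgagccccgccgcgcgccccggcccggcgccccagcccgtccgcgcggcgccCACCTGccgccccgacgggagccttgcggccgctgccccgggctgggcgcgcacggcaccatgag
Wnt9b, chr11:103749772-103750071 (minus strand): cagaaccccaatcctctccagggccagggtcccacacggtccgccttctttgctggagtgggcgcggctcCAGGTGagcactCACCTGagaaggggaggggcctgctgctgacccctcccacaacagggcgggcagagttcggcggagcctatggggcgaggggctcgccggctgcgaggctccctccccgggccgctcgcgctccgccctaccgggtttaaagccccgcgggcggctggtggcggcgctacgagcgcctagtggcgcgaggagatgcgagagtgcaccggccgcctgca

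In the Fzd5 sequence the E-box began 20 bases upstream of the start site, at chr1:64737765-64737770, inside the Snail peak. The Fzd7 and Wnt1 sequences held none. The Wnt4 E-box began 15 bases upstream of the start site, and Wnt9b had a pair beginning 180 and 168 bases upstream. Promoter sequences were found for 31 of the 50 genes, 35 sequences in all because some genes have several start sites. CAGGTG, read on both strands, occurred in 9 of the 35 (25.7%), against 19.7% of the 21263 protein-coding promoters of the same length. The looser E-box CANNTG, which includes CAGGTG, occurred in 22 (62.9%, against 69.0%). Of the 10 CAGGTG matches in member promoters, the Fzd5 match lay in a Snail peak and none lay in a Slug peak. Over all protein-coding promoters, those overlapped by a Slug peak held CAGGTG in 39.4% of cases, and those overlapped by a Snail peak in 16.7%. A Snail peak overlapped 9 of the 35 member promoters (25.7%), against 49.2% of all promoters. A Slug peak overlapped none of the 35, but also only 3.97% of all promoters, a share at which few would be found among 35. Genes without a listed start site were not covered, among them Fzd6, where a Slug peak lay across a gene end.

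Across all genes, Snail near the start was commoner at promoters rich in CpG, and fewer than 1 in 2 of the CpG-rich Wnt pathway promoters carried it. The CpG ratio is given as CpG dinucleotides observed over those expected from the C and G content of the 300 bases. Of all promoters with a ratio of 0.8 or more, 88.6% had a Snail peak within 1 kb of the start site, and of those under 0.4, 12.1%. Among Wnt pathway promoters with a ratio of 0.8 or more, 6 of 16 did (37.5%). Those without were 1 start site each of Wnt2, Wnt2b, Wnt3a, Wnt4, Wnt5b, Wnt7a, Wnt11, Rspo1, Rspo4 and Fzd10. Of these 10, 9 belong to genes of secreted proteins. Those with a Snail peak were Fzd4, Fzd5, Fzd9, Axin2, Wnt9a and the other listed start of Wnt11. Between 0.6 and 0.8, 6 of 11 member promoters had a Snail peak within 1 kb, against 78.1% of all. The shares were not tested against each other, and several promoters belong to the same gene.

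**Figure D2:**
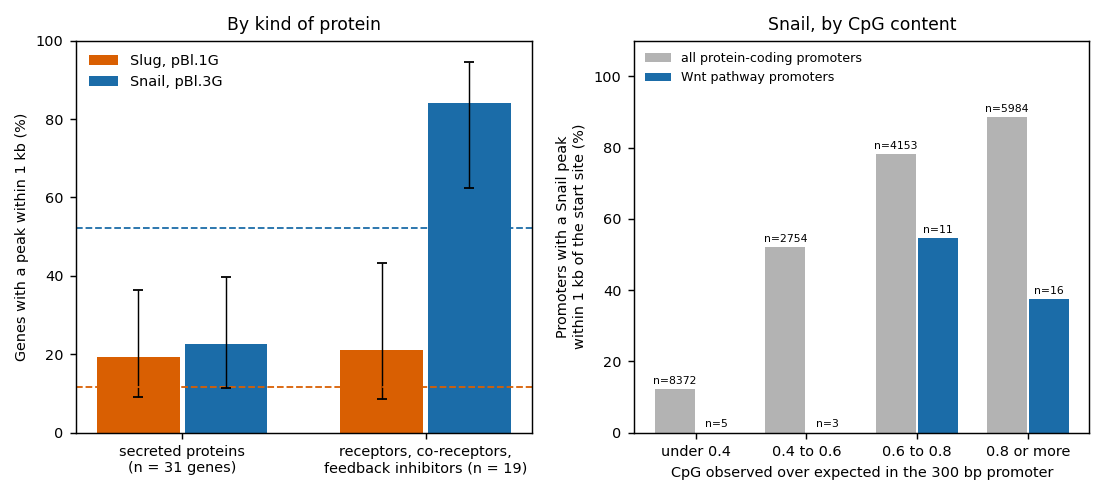
Left, percent of genes with a Slug (orange) or Snail (blue) peak within 1 kb of a start site or end, for the 31 genes of secreted proteins and the 19 others; error bars are 95% Wilson intervals and dashed lines the shares of all protein-coding genes (11.7% for Slug and 52.1% for Snail). Right, percent of promoters with a Snail peak within 1 kb, by CpG observed over expected, for all protein-coding promoters (grey) and Wnt pathway promoters (blue); in the highest class 88.6% stand against 37.5%.

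The co-receptor genes Lrp5 and Lrp6 were among those with the most peaks. Lrp5 (chr19:3584825-3686585) had 9 Snail peaks. The peak across its high-coordinate end, at chr19:3684962-3687032, scored 314 and was 2071 bp wide. The highest-scoring, 514, lay 7.71 kb beyond the other end and within 1 kb of an end of Ppp6r3. The 7 others scored between 63.5 and 129. Of the 3 Slug peaks, that at chr19:3595833-3596320 (score 130) lay wholly within a Snail peak (score 129). The highest-scoring Slug peak, 242, lay deep inside the gene, 49.4 kb from the nearer end. Lrp6 (chr6:134446476-134566913) had 6 Slug and 4 Snail peaks, and none of them overlapped. Its Snail peak at the high-coordinate end scored 672 and its other 3 between 53.5 and 96.0. Its Slug peaks reached 368, 38 kb inside the gene at chr6:134528552-134528875, and 353, 8.06 kb beyond the high-coordinate end. They ranked in the top 5.3% and 5.83% of their list. The co-receptors thus shared a Snail peak at 1 end and Slug peaks away from it. Both genes are longer than 100 kb. Of all genes of that size, 94.4% had a Slug peak in the window and 55.1% a Snail peak within 1 kb.

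Among the Wnt ligand genes, Slug had peaks in the window of 14 of 19 and Snail of 12, against 56.4% and 66.9% of all genes. Within 1 kb of a start or end, 5 had Slug and 6 had Snail, against 11.7% and 52.1%. Wnt7b, a ligand known from lung development, had the highest Slug score of all 50 genes, 534, in the top 2.21% of the list. That peak, chr15:85542097-85542247, was 151 bp wide, 6.66 kb inside the gene from its low-coordinate end, and lay wholly within a Snail peak with a score of 60.4. Wnt7b also had 8 Snail peaks, of which 5 scored under 80 and the highest, 317, lay inside the gene. At its high-coordinate end 3 Snail peaks scored 60.4, 88.5 and 160. A further Slug peak, with a score of 330, lay 8.83 kb beyond that end. The strongest sites of the factors at this gene were therefore at different places.

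Wnt9a had Slug and Snail peaks together more often than any other member. It had 5 Slug and 6 Snail peaks, and 3 of the Slug peaks overlapped a Snail peak. The pair nearest the start was a Slug peak at chr11:59307668-59308170 (score 138) within a Snail peak at chr11:59307512-59308891 (score 195). Another Snail peak, at chr11:59306849-59307213 with a score of 204, covered the start site. A pair 3.68 kb upstream of the gene scored 164 for Slug and 54.9 for Snail, and a pair inside the gene 61.3 and 72.2. The neighbouring gene Wnt3a, which encodes a ligand of the canonical branch, had 1 Slug peak inside the gene (score 162) and no Snail peak. Its nearest Snail peak was 11.9 kb away, the one upstream of Wnt9a.

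Wnt10b and Wnt1, which neighbour each other and are both known from mammary tumours, had 3 places where a Slug and a Snail peak stood side by side. A Slug peak at chr15:98779674-98779945 (score 243, top 12.2%) lay 1.66 kb upstream of the Wnt10b start site, and a Snail peak (score 84.9) followed after a gap of 81 bp. Both peaks are also within 10 kb of Wnt1 and were counted for each gene. At the Wnt1 start a Slug peak (78.8) and a Snail peak (65.9) were 343 bp apart, and beyond the gene a Slug peak (90.6) and a Snail peak (64.5) were 90 bp apart. The highest Snail score in the window of any member, 1435, was counted for Wnt10b, but that peak lay 7.04 kb beyond the gene at an end of Arf3. A Slug peak (94.1) lay within it. At Wnt1 all 3 Snail peaks scored under 85, between the top 69.9% and the top 83.9% of their list.

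The adjoining ligand genes Wnt6 and Wnt10a showed a like arrangement. Beyond the high-coordinate end of Wnt10a a Slug peak (chr1:74807713-74807987, score 310, top 7.55%) stood 92 bp from a Snail peak (score 94.3). A lower-scoring Snail peak (72.4), inside the gene near that end, was the only Snail peak of Wnt10a within 1 kb of a gene end. At its low-coordinate end 2 Slug peaks scored 91.5 and 58.8, and a Snail peak inside the gene scored 267, 249 bp from the nearer of them. Wnt6 was assigned the same 3 peaks by the 10 kb rule. Its only own peak was a Slug peak (score 105) across the low-coordinate end of its span, 17.5 kb upstream of its listed start site. Over the 50 genes, 7 of 83 distinct Slug peaks (8.43%) lay within 500 bp of a Snail peak without overlapping it, against 2.23% of the whole Slug list. Of these, 6 were at ligand genes and the other at Fzd4. This class was chosen after the values were seen. The whole list was not limited to peaks in or near genes, so the shares are over unlike sets and were not tested.

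**Figure D3:**
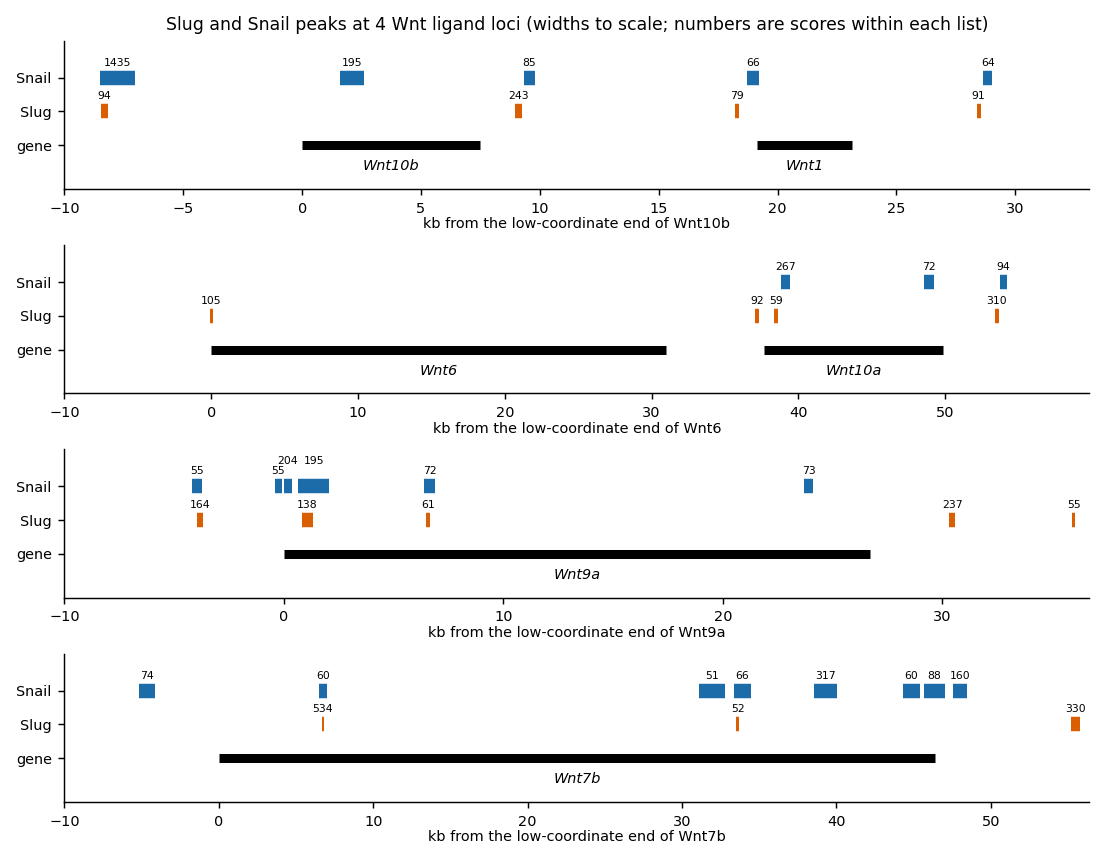
Slug (orange) and Snail (blue) peaks at the loci of Wnt10b and Wnt1, Wnt6 and Wnt10a, Wnt9a, and Wnt7b, drawn to scale in kb from the low-coordinate end of the first gene (black bars are gene spans; numbers are scores, which compare within a factor only). At Wnt10b a Slug peak with a score of 243 stands 81 bp from a Snail peak scoring 84.9, and at Wnt9a 3 pairs overlap.

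The remaining ligand genes are described in turn. Wnt5a, a ligand best known for signalling without beta-catenin, had the widest Snail peak of any member, 3573 bp across its low-coordinate end (chr14:28503480-28507052, score 620), and 1 Slug peak with a score of 57.6 beyond that end. Wnt5b had 5 Slug peaks. One of them, with a score of 83.5, lay 0.264 kb inside from a listed start site. Its highest-scoring Slug peak (323) lay within a Snail peak (689) 2721 bp wide, but these sit at an end of Fbxl14, a gene that lies within the RefSeq span of Wnt5b. At Wnt11, Slug had a peak (301) 9.95 kb upstream, and Snail one (63.4) within 1 kb of the second listed start. Wnt4, a ligand required for mammary duct side-branching, had a Snail peak (223) 9.97 kb inside the gene and a Slug peak (149) 0.675 kb beyond its 3′ end, and nothing at its start. Wnt2b had a Slug peak inside the gene (116) and a Slug (51.1) and a Snail peak (305) 5.52 and 6.33 kb upstream. The Slug peaks of Wnt2 scored 142 and 137, the first within 1 kb of a start site, and that of Wnt7a 66.3. Wnt9b had 1 Snail peak (88.7), 9.11 kb upstream of its start site. Wnt3, whose span overlaps that of Wnt9b, had none.

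**Figure D4:**
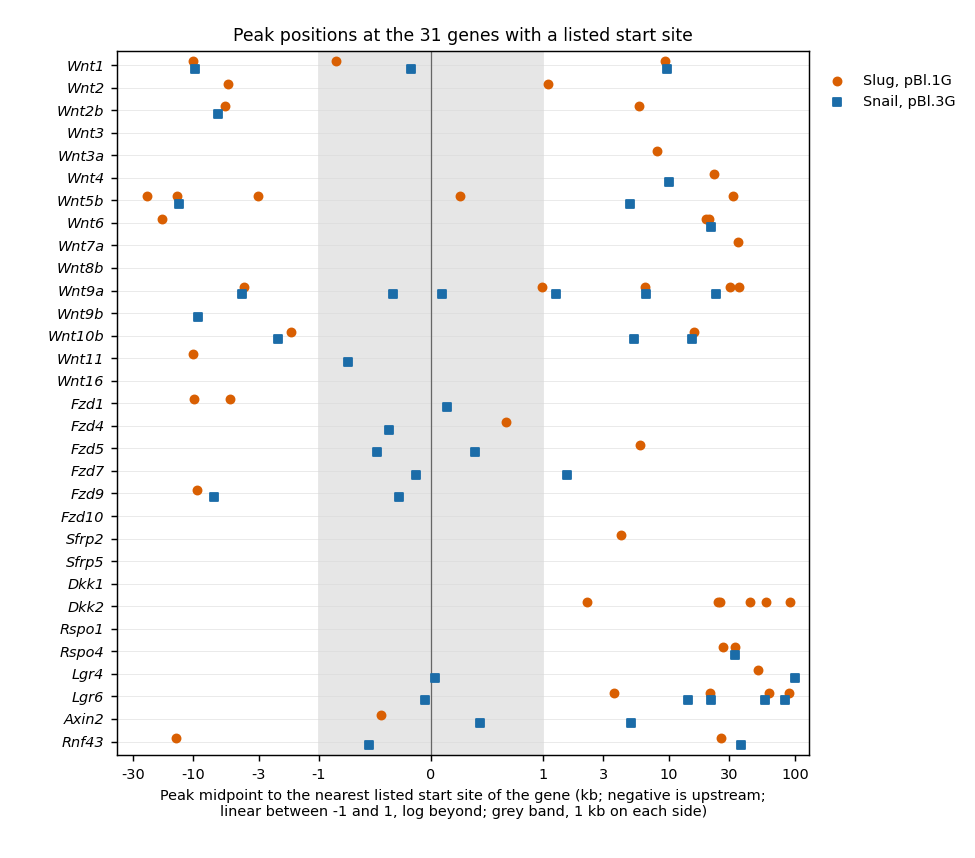
Distance from each peak midpoint to the nearest listed start site, in kb, for the 31 genes with a listed start site; orange circles are Slug and blue squares Snail, negative values are upstream, and the grey band marks 1 kb on each side. Snail peaks reach to within 1 kb at 12 genes, among them 5 of the 6 Frizzled genes shown, and Slug peaks reach to within 1 kb at 6 genes.

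The genes of secreted antagonists and R-spondins had few Snail peaks. Of these 12 genes, 7 (58.3%) had Slug and 4 (33.3%) had Snail in the window, against 56.4% and 66.9% of all genes. Within 1 kb, only Sfrp1 had Snail and only Rspo2 had Slug. Sfrp1, an antagonist that binds Wnts, had its Snail peaks (356 and 108) at the low-coordinate end and 3 Slug peaks inside, at most 154. Sfrp2 had a single Slug peak (chr3:83770383-83770628, score 333, top 6.63%) 4.18 kb into the gene. The single Snail peak of Sfrp4 (score 487) lay at an end of the neighbouring gene Epdr1, and Sfrp5 had no peak.

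Dkk2, an Lrp6-binding antagonist, had 6 Slug peaks and no Snail peak. Its highest-scoring Slug peak, at chr3:132176403-132176684, reached 394 (top 4.55%), 3.62 kb from the 3′ end, and the other 5 scored between 62.7 and 74.1. Dkk4 had 3 Slug peaks in the flanks, with scores of 95, 240 and 53.4. Dkk3 had 2 peaks of each factor. Its Slug peak with a score of 79.3 lay wholly within a Snail peak scoring 91.3. Its other Snail peak scored 137. Dkk1 had no peak in the window. Among the R-spondins, Rspo2 had a Slug peak inside the gene (145) and another just beyond its high-coordinate end (59.1). Rspo4 had an overlapping pair beyond its 3′ end with low scores, 55.6 for Slug and 90.3 for Snail, and a further Slug peak inside the gene (51.3). Rspo1 and Rspo3 had none.

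The R-spondin receptor genes differed from each other. Lgr4 had a Snail peak over its start site (chr2:109917409-109917961, score 845, top 15.3%) and 1 low Slug peak (55.8) inside the gene. A higher Snail score in its window, 1317, belonged to a peak at an end of Ccdc34. Lgr5 had 5 Slug peaks, all inside the gene with scores from 62.2 to 124, and no Snail peak within 10 kb. Of these Slug peaks 3 lay within 1 kb of each other, between positions 115572885 and 115573647 of chromosome 10. The nearest Snail peak (303) was 14.0 kb beyond its low-coordinate end. Lgr6 had 4 Slug and 5 Snail peaks. A Snail peak 2102 bp wide covered its start site with a score of 251, and 1 Slug peak (105) inside the gene lay wholly within a Snail peak (153).

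Snail peaks were found at all 4 genes of inhibitors inside the cell or at its surface. These genes are long, and 79.6% of all genes of 30 to 100 kb and 78.0% of longer ones also had a Snail peak. Axin2, a widely used target gene of beta-catenin, had only low-scoring peaks: a Slug peak (chr11:108919819-108919985, score 71.6) 0.447 kb upstream of its listed start site, a Snail peak (53.4) 0.435 kb downstream of it, and a second Snail peak (94) at 5.04 kb. Axin1, the scaffold of the destruction complex, had no Slug peak in the window and a Snail peak with a score of 812 inside the gene, 6.5 kb from its low-coordinate end. Its other Snail peak (889) lay at the ends of Mrpl28 and Pgap6. Znrf3, a ubiquitin ligase that removes Frizzleds from the surface, had 5 Snail peaks. Of these, 3 gathered at its high-coordinate end with scores of 272, 171 and 53.8. Its highest-scoring Slug peak (chr11:5290606-5290979, score 345, top 6.13%) was 14.3 kb inside the gene from the other end. Rnf43, its relative, had Snail (77) 0.554 kb upstream of its start, and Slug inside the gene (204). A Snail peak with a score of 988 beyond its 3′ end lay at an end of Supt4a.

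**Figure D5:**
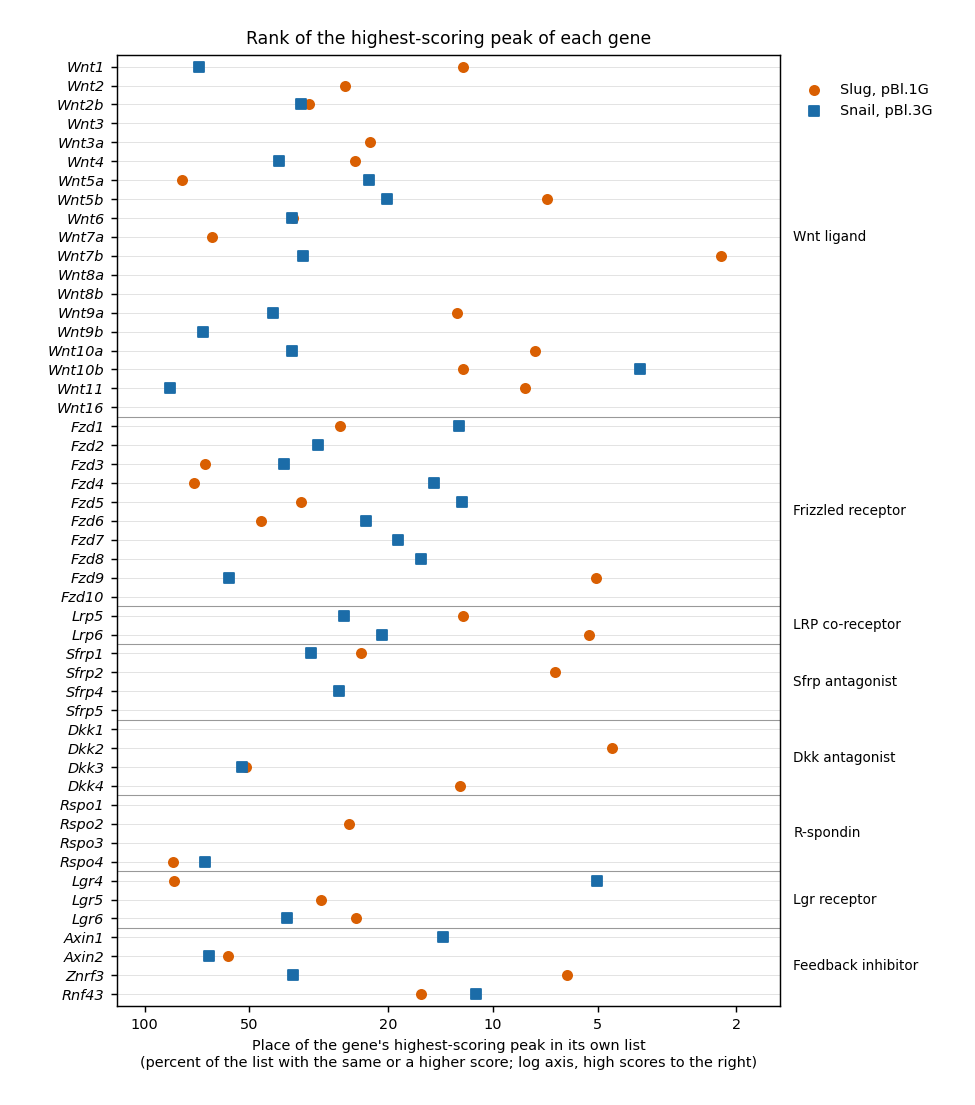
Place of the highest-scoring Slug (circle) and Snail (square) peak of each gene within its own list, as the percent of that list with the same or a higher score, on a log axis with high scores to the right; a missing mark means no peak. The Wnt7b Slug peak stands in the top 2.21%, and the highest Snail marks, Wnt10b at 3.78% and Lgr4 at 5.03%, are peaks at ends of Arf3 and Ccdc34.

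Peaks at the ends of other genes were set aside once to see how far they carry the counts. Of the 79 distinct Snail peaks in the windows, 8 lay within 1 kb of an end of a protein-coding gene outside the 50, and of the 83 Slug peaks 4 did. Without them, Slug had peaks at 34 genes and Snail at 31, in place of 35 and 33. The like counts for all protein-coding genes were not computed, so whether these losses are large or small beside other genes was not tested. Sfrp4 lost its only Snail peak, and Fzd4 lost both of its peaks. Of the 3 highest Snail scores in the windows, 1435, 1317 and 988, all were among those set aside, and the highest at a gene's own start were then those of Fzd5 and Fzd1.

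Over the distinct peaks, 11 of 83 Slug peaks (13.3%) and 32 of 79 Snail peaks (40.5%) reached within 1 kb of a member's start or end. The median score of the Snail peaks there was 200.0, against 94 for those elsewhere in the windows. For Slug the medians were 78.8 there and 94.8 elsewhere. These shares and medians were not computed for the whole lists, so whether they are particular to these genes was not tested. The share of peaks that overlapped one of the other factor was near that of the whole lists: 13 Slug peaks (15.7%, against 12.1% of all Slug peaks) and 13 Snail peaks (16.5%, against 16.6%). The pairs fell on 10 genes (20%, against 18.5% of all protein-coding genes): Wnt5b, Wnt7b, Wnt9a, Wnt10b, Fzd3, Fzd6, Lrp5, Dkk3, Rspo4 and Lgr6. In 11 of the 13 pairs the Slug peak lay wholly within the wider Snail peak. The rule of 10 kb left some sites just out of reach. The Wnt1 Slug peak at 9.91 kb was counted, and a Snail peak 10.2 kb beyond the same gene (score 52.8) was not.

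Other genes of the pathway were taken from lists chosen by function. Snail near a start site or gene end was common in the intracellular list. In the list for secretion and surface its share was nearer that of all genes. Of 28 genes of the intracellular pathway, Slug had peaks in the window of 23 and Snail of 27 (56.4% and 66.9% of all genes), and within 1 kb 1 had Slug and 23 had Snail. Of 23 genes for Wnt secretion and further surface or extracellular proteins, 18 had Slug and 20 Snail, and within 1 kb 4 and 14. The shares of all genes within 1 kb were 11.7% and 52.1%. By score, the leading intracellular genes for Slug were Gsk3b, the kinase that marks beta-catenin for destruction (728), and Nkd1 (497). For Snail they were Pygo2, a nuclear partner of beta-catenin (1891), and Gsk3b (1666). In the second list they were Ror2, a receptor for Wnt5a (1178), and Notum, an enzyme that removes the Wnt lipid (821), for Slug. For Snail they were Tpbg (1312) and Wls, the carrier that takes Wnts to the cell surface (1020). The gene of beta-catenin itself, Ctnnb1, had 1 Snail peak, scoring 1005, at its low-coordinate end (chr9:120932879-120933729) and 2 Slug peaks, at most 140. It was singled out after its values were seen.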

How the data were processed

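The deposited files used here are 1 peak list per ChIP library, in which the authors give each peak a position and a score from their peak caller. Cells were fixed with 1% formaldehyde for 10 min and DNA sonicated to about 200 to 500 bp, per the labels' protocols. Per the submitters' processing notes, the tools were Bowtie and MACS 1.4.2 and the build mm10. Settings, controls and the scale of the score were not stated. Read depth is therefore unknown, and the input libraries were not used.

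Genes and promoter sequences came from RefSeq tables of GRCm38.p6, the assembly of mm10. The promoter sequences gave a start site for 17492 of the 21887 protein-coding genes, and no other source of start sites or sequence was used. A peak belonged to a gene when at least 1 bp of it touched the span extended by 10 kb. The interval search was tested on simulated data. Python 3.11.15, numpy 2.4.6, pandas 2.3.3, scipy 1.17.1 and matplotlib 3.10.9 were used. No test was run between the libraries. Members, gene lists and the rule for named genes (a set of well-studied members, the 5 highest-scoring and the 5 with most peaks per factor, and those with overlapping peaks) were chosen with earlier results of these data known; the remaining members were described too, after their values were seen.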

Additional observations from a re-analysis of the deposited data

How the results depend on the processing

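Counts of genes were recomputed with peak midpoints, flanks of 5 and 25 kb, only peaks within 10 kb of a gene end, a window of 2 kb at the start or end in place of 1 kb, pairs within 500 bp, a score of at least 100 in both lists, and the Slug list limited to its 28375 highest-scoring peaks. All stayed within 1.5 times of the counts given except these. With flanks of 25 kb, genes with neither factor numbered 2 in place of 9 (14.9% of all genes at that setting). With a score of at least 100, genes with both numbered 17 (25.7% of all genes), genes with Snail alone 11 (35.6%), genes with Slug within 1 kb 2 (4.5%; Wnt2 and Wnt9a), secreted-protein genes with Snail within 1 kb 3 (49.4%), and genes with an overlapping pair 4 (6.86%). With equal numbers of peaks, genes with Snail alone numbered 10 (29.3% of all genes). With a reciprocal overlap of 50%, 2 genes (Wnt9a and Lrp5) kept a pair (4.39% of all genes). A score of 100 may not be equally strict in both lists. The alternatives for the split by kind of protein, the count at either end of every gene, and the count without peaks at other genes were chosen after seeing the data. No paired analysis was possible because each factor has 1 library and no test was made.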

Other observations

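Some genes lacking peaks of 1 or both factors in the window had sites farther out. Dkk1, an antagonist that binds Lrp co-receptors, had a Slug peak with a score of 1537 at chr19:30566472-30567017, 17 kb upstream, with a Snail peak (score 129) over the same place. It ranked in the top 0.228% of the Slug list. The nearest Snail peaks of Wnt7a (score 1637) and Rspo3 (score 1322) were 29.1 and 90.6 kb from these genes, and that of Dkk4 (score 815) was 25.1 kb away. For Wnt2 the nearest Snail peak was 82.7 kb away with a score of 52.1. Whether any of these sites acts on the named gene was not tested.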
